A study of Mus musculus with 4 samples.

Results

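The D, E and A cyclins and their cyclin-dependent kinases (CDKs) were followed as 10 genes (Ccnd1, Ccnd2, Ccnd3, Ccne1, Ccne2, Ccna1, Ccna2, Cdk4, Cdk6 and Cdk2), chosen by gene symbol from the 27267 genes in the deposited read counts. Expression had been measured by RNA sequencing in cultured cardiomyocytes, the contracting muscle cells of the heart, from CD1 mice at postnatal day 1. Cells received the mimic hsa-miR-199a-3p, a synthetic copy of a human microRNA, or the mimic hsa-miR-590-3p. The controls were cel-miR-67, a mimic of a Caenorhabditis elegans microRNA, and mock transfection. All mimics were used at 50 nM in a reverse transfection with Lipofectamine RNAiMAX, and cells were collected after 72 h. There was 1 library per condition, so no difference below has a replicate check, no test was possible, and the labels do not say whether the 4 libraries came from separate cell preparations.

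Cyclins are the regulatory subunits that switch CDKs on at set points of the cell cycle. D-type cyclins bind CDK4 and CDK6 in G1 and begin the phosphorylation of the retinoblastoma protein, which releases E2F transcription factors. E-type cyclins bind CDK2 at the entry into S phase, and A-type cyclins bind CDK2 and CDK1 during S phase and G2. Mouse cardiomyocytes leave the cell cycle in the days after birth, and many of these genes are known to decline in the heart over that time.

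The 4 libraries held 38745528 (hsa-miR-199a-3p), 34452240 (hsa-miR-590-3p), 34255689 (cel-miR-67) and 31638930 (mock) gene reads. Cardiomyocyte marker genes were present in every library (all 8 of the list), and their summed level was 29488 CPM (counts scaled to library totals by TMM) with hsa-miR-199a-3p and 29734 CPM with hsa-miR-590-3p, against 40303 CPM with cel-miR-67 and 44141 CPM in mock. Fibroblast markers (8 of 8 present) summed to 11696, 11252, 9945 and 10433 CPM, in the order hsa-miR-199a-3p, hsa-miR-590-3p, cel-miR-67 and mock, and smooth muscle and pericyte markers (6 of 6) to 5340, 4109, 4061 and 3376 CPM. Endothelial markers lay between 166 and 224 CPM and epicardial markers between 116 and 186 CPM. Macrophage markers lay between 5.83 and 18.7 CPM, with 2 to 4 of the 6 below 1 CPM. The 3 erythroid markers found in the files were each below 1 CPM in every library, and no marker was at 0. Gene by gene, 7 of 8 cardiomyocyte markers were below both controls with each mimic and 1, Myl7, was above. With hsa-miR-199a-3p, the 3 collagens among the fibroblast markers were above both controls and the other 5 below both (Dcn, Lum, Pdgfra, Tcf21 and Postn), while with hsa-miR-590-3p 4 were above and 2 below. Of the smooth muscle and pericyte markers, 3 of 6 were above both controls with each mimic, and Acta2 made up most of their sum. The part of these marker levels in the cyclin values below was not tested. In a bulk sample, fewer cells of a type and less RNA per cell cannot be told apart.

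The mature sequence that the hsa-miR-199a-3p mimic is named after has a mouse counterpart in RefSeq (GRCm38.p6). It is encoded by both Mir199a-2 (chr1:162217883-162217904, plus strand) and Mir199a-1 (chr9:21496498-21496519, minus strand), with the same 22 bases from both genes. It is shown because its seed, bases 2 to 8 in capitals, is the stretch that pairs with target transcripts.
mmu-miR-199a-3p: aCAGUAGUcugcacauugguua

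Promoters from 250 bases before to 50 bases after the start site were found in the RefSeq table (GRCm38.p6) for 6 of the 10 genes, 7 promoters in all. Those of Ccnd1, Ccnd2, Ccne2 and Ccna2 are not shown. They were searched on both strands for TTTNNCGC (a core of E2F sites), CACGTG (an E-box), GGGCGG (a GC box) and TTTGAA (the cell cycle homology region), motifs that were chosen after the sequences had been seen. Of 32851 mouse promoters of the same length, 5.17% held the E2F letters, 7.15% the E-box, 35.7% the GC box and 17.9% the cell cycle homology region. The E2F letters stood once in Cdk2 and once in Cdk6. The E-box stood at 4 places in Cdk4 and at 1 place in Cdk6. GC boxes stood at 6 places in Cdk2, 4 in Ccne1, 3 in Cdk4, 3 in Ccna1 and 2 in each of the 2 Ccnd3 promoters. No place was shared by different motifs, and the cell cycle homology letters were in none of the 7 windows. A match is a description of the letters, not a binding site. The promoters shown are those of Ccne1 (chr7:38107441-38107740, minus strand, GC boxes in capitals), which had the highest ratios of hsa-miR-199a-3p to both controls among the 9 genes compared, and of the kinases Cdk4 (chr10:127063285-127063584, plus strand) and Cdk6 (chr5:3343643-3343942, plus strand), which lay on opposite sides of the controls with hsa-miR-199a-3p (E-boxes in capitals).
Ccne1: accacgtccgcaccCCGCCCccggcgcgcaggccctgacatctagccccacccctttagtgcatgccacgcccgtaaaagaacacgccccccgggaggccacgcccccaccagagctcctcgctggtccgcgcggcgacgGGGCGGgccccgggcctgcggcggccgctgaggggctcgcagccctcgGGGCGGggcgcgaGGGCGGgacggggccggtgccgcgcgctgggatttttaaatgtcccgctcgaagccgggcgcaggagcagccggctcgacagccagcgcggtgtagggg
Cdk4: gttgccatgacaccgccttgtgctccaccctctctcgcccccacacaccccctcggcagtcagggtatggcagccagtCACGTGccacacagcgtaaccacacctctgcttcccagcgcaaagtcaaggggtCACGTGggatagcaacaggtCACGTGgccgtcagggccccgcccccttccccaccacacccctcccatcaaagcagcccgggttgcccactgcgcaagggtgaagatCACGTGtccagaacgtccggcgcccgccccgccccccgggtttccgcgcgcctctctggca
Cdk6: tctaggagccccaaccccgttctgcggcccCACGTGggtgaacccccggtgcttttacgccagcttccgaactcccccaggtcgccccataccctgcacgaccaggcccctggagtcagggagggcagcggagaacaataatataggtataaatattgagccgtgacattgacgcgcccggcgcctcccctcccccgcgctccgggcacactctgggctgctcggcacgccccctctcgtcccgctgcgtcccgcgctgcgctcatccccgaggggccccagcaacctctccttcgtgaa

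Among the 10 genes, 9 averaged 1 CPM or more and entered the comparisons, together with 13502 genes in all, and Ccna1 did not. With hsa-miR-199a-3p, the E-type cyclin Ccne1 and the A-type cyclin Ccna2 rose by the criterion used, a ratio of at least 2 against cel-miR-67 and against mock. That is 2 of 9 genes, and 2.4% of all genes tested met the same criterion. None of the 9 was at least 2-fold lower than both controls, against 2.34% of all genes, so 2 of 9 met the criterion in either direction, against 4.74%. With hsa-miR-590-3p none of the 9 was at least 2-fold higher than both controls (background 0.356%) or 2-fold lower (background 0.23%), 0 of 9 in either direction against 0.585% of all genes. Counting any distance from the controls, hsa-miR-199a-3p placed 7 of 9 above both (background 40.2%) and 2 of 9, Ccnd2 and Cdk6, below both (background 41.9%). The hsa-miR-590-3p library had Ccne1, Ccne2, Ccna2, Cdk4 and Cdk2 above both controls, 5 of 9 (background 35.6%), and Ccnd2 below both, 1 of 9 (background 36.6%). Scaling to total reads alone moved that split to 8 above both controls and 0 below, while the share of all genes above both controls moved to 48.9%. The same 5 genes were above both controls with each mimic, against 21.2% of all genes, and Ccnd2 was below both with each, against 21.6%. Both mimics were set against the same 2 control libraries, so these 2 sets of values are not independent.

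The D-type cyclins differed from one another in direction. Ccnd1, the D-type cyclin that growth factor signalling is best known to induce, had 7743 reads (192 CPM) with hsa-miR-199a-3p and 4926 (139 CPM) with hsa-miR-590-3p, against 4860 (145 CPM) with cel-miR-67 and 3694 (122 CPM) in mock. The hsa-miR-199a-3p library was thus the highest of the 4, while the hsa-miR-590-3p library lay between the controls. The ratio was 1.32 against cel-miR-67 (95% counting interval 1.28 to 1.37) and 1.58 against mock (1.52 to 1.65) for hsa-miR-199a-3p. For hsa-miR-590-3p it was 0.959 (0.922 to 0.998) and 1.15 (1.10 to 1.20). All intervals of ratios are exact conditional binomial 95% intervals and cover counting error only.

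Ccnd2, the gene with the highest level per length among the 10 in both controls, went the other way. It had 18899 reads (469 CPM) with hsa-miR-199a-3p and 19855 (562 CPM) with hsa-miR-590-3p, against 22438 (671 CPM) with cel-miR-67 and 17968 (591 CPM) in mock. Both mimic libraries were below both controls on the scaled values. The ratios were 0.699 (0.686 to 0.713) and 0.794 (0.778 to 0.810) for hsa-miR-199a-3p against cel-miR-67 and mock, and 0.837 (0.821 to 0.853) and 0.950 (0.931 to 0.969) for hsa-miR-590-3p. Scaling to total reads alone put the ratio of hsa-miR-590-3p to mock just above 1, at 0.02 on the log2 scale.

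Ccnd3, the third D-type cyclin, had 8342 reads (207 CPM) with hsa-miR-199a-3p and 6388 (181 CPM) with hsa-miR-590-3p, against 6136 (183 CPM) with cel-miR-67 and 4166 (137 CPM) in mock. Here the controls stood further apart than hsa-miR-199a-3p and cel-miR-67 did. The cel-miR-67 library was 1.34 times mock (1.29 to 1.39), whereas hsa-miR-199a-3p was 1.13 times cel-miR-67 (1.09 to 1.17) and 1.51 times mock (1.46 to 1.57). The hsa-miR-590-3p value was 0.985 times cel-miR-67 (0.951 to 1.02) and 1.32 times mock (1.27 to 1.37). Only 3.0 to 3.7% of Ccnd3 reads were placed uniquely, and variant 1 of its 3 transcript records held 98.4 to 99.3% of the reads.

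**Figure D1:**
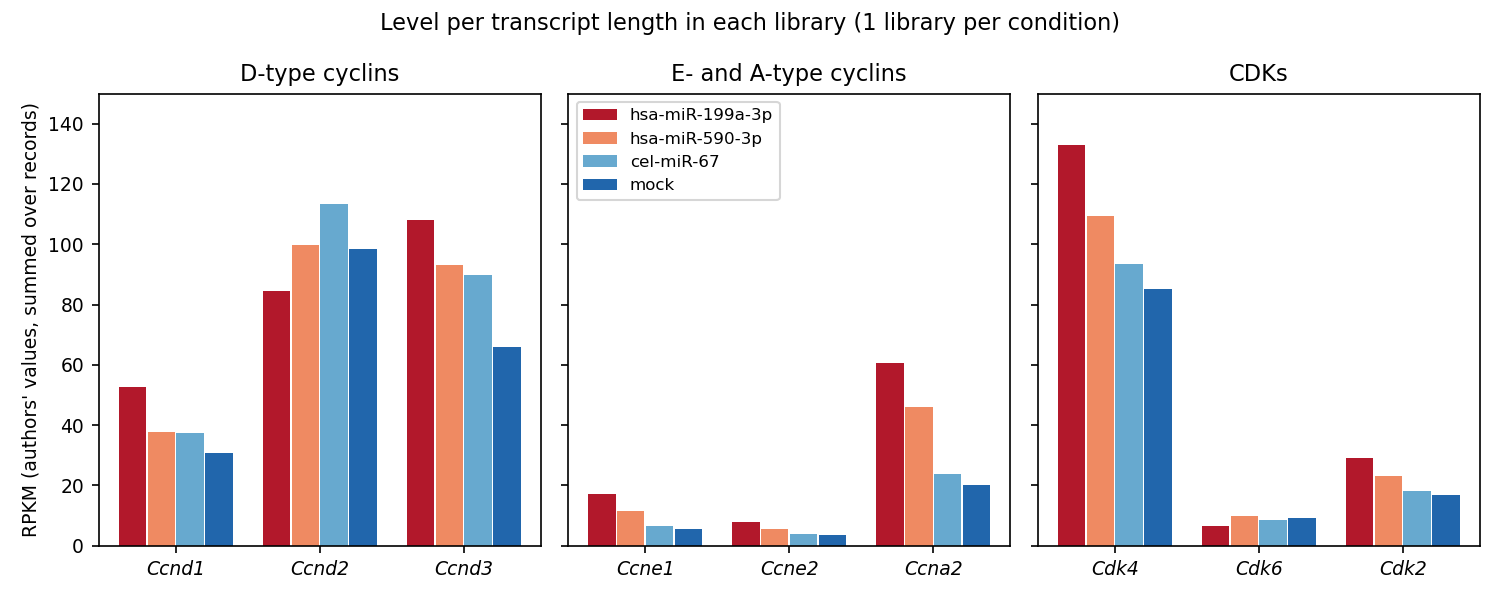
Level of each gene in each library in RPKM (reads scaled to transcript length and library total, the authors' values summed over the transcript records of a gene, vertical axis), in the order hsa-miR-199a-3p, hsa-miR-590-3p, cel-miR-67, mock, with 1 bar per library and no error bar because there was 1 library per condition; Ccna1, at most 0.2 RPKM, is left out. Ccnd2 is lowest with hsa-miR-199a-3p, at 84.51 RPKM, while Ccna2 reaches 60.55 and 45.85 RPKM in the mimic libraries, against 23.79 and 20.28 RPKM in the controls. RPKM carries no TMM factor, so small differences between libraries can differ in direction from the ratios of CPM. For Ccnd1, hsa-miR-590-3p is at 37.67 RPKM and cel-miR-67 at 37.37 RPKM, where the ratio of CPM is 0.959.

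The 3 D-type cyclins differed in how much each contributed to their summed level per length. The sum was 245.2 RPKM with hsa-miR-199a-3p and 230.55 RPKM with hsa-miR-590-3p, against 240.7 RPKM with cel-miR-67 and 195.2 RPKM in mock. By RPKM, which carries no TMM factor, the hsa-miR-590-3p sum lay between the controls and the hsa-miR-199a-3p sum was the highest of the 4. The order of hsa-miR-199a-3p and cel-miR-67 depended on that scaling. Their TMM factors were 1.04 and 0.976. Dividing by the factors would put cel-miR-67 highest and hsa-miR-199a-3p between the controls. Ccnd2 made up 34.5% of the D-type sum with hsa-miR-199a-3p and 43.3% with hsa-miR-590-3p, against 47.1% with cel-miR-67 and 50.4% in mock. Ccnd3 made up 44.1% and 40.4% with the mimics, against 37.3% and 33.8% in the controls. By RPKM the leading D-type cyclin was therefore Ccnd3 with hsa-miR-199a-3p and Ccnd2 in the other 3 libraries, whereas on unique reads per length Ccnd2 led in all 4, since nearly all Ccnd3 reads were shared between records. Ratios within a library do not depend on the scaling between libraries. The ratio of Ccnd1 to Ccnd2 was 0.623 (0.607 to 0.640) with hsa-miR-199a-3p and 0.377 (0.366 to 0.389) with hsa-miR-590-3p, against 0.329 (0.319 to 0.340) with cel-miR-67 and 0.313 (0.302 to 0.324) in mock. The ratio of Ccnd3 to Ccnd2 was 1.28 with hsa-miR-199a-3p and 0.932 with hsa-miR-590-3p, against 0.792 with cel-miR-67 and 0.671 in mock. In both ratios the mimic libraries stood above the controls, hsa-miR-199a-3p furthest. On unique reads the ratio of Ccnd3 to Ccnd2 was 0.0438 and 0.0346 with the mimics, against 0.0236 and 0.0247 in the controls, much smaller but with both mimics again above both controls.

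Cdk4 and Cdk6 encode the kinases that D-type cyclins activate. Cdk4 had 7038 reads (175 CPM) with hsa-miR-199a-3p and 5145 (146 CPM) with hsa-miR-590-3p, against 4362 (130 CPM) with cel-miR-67 and 3676 (121 CPM) in mock. Both mimic libraries were above both controls, by less than 2-fold. The ratios were 1.34 (1.29 to 1.39) and 1.44 (1.39 to 1.50) for hsa-miR-199a-3p against cel-miR-67 and mock, and 1.12 (1.07 to 1.16) and 1.20 (1.15 to 1.26) for hsa-miR-590-3p. Of the Cdk4 reads, 49 to 51% were placed uniquely and the others were shared with other records.

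Cdk6 had 622 reads (15.4 CPM) with hsa-miR-199a-3p and 847 (24.0 CPM) with hsa-miR-590-3p, against 726 (21.7 CPM) with cel-miR-67 and 730 (24.0 CPM) in mock. The hsa-miR-199a-3p library stood below the other 3, which lay close together. Its ratios were 0.711 against cel-miR-67 (0.638 to 0.793), 0.643 against mock (0.577 to 0.716) and 0.645 against hsa-miR-590-3p (0.580 to 0.716). For hsa-miR-590-3p the ratios of 1.10 (0.998 to 1.22) against cel-miR-67 and 0.997 (0.902 to 1.10) against mock had intervals that included 1. Of all genes tested, 15.6% had a lower ratio of hsa-miR-199a-3p to cel-miR-67 than Cdk6, and 10.5% a lower ratio to mock. All Cdk6 reads were placed uniquely. Per length, the ratio of Cdk4 to Cdk6 was 20.5 (18.9 to 22.3) with hsa-miR-199a-3p and 11.0 (10.2 to 11.8) with hsa-miR-590-3p, against 10.9 with cel-miR-67 and 9.11 (8.42 to 9.88) in mock. With unique reads in place of all reads these ratios were 10.1 and 5.62 with the mimics, against 5.37 and 4.58 in the controls, so their size but not their order depended on the shared reads.

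**Figure D2:**
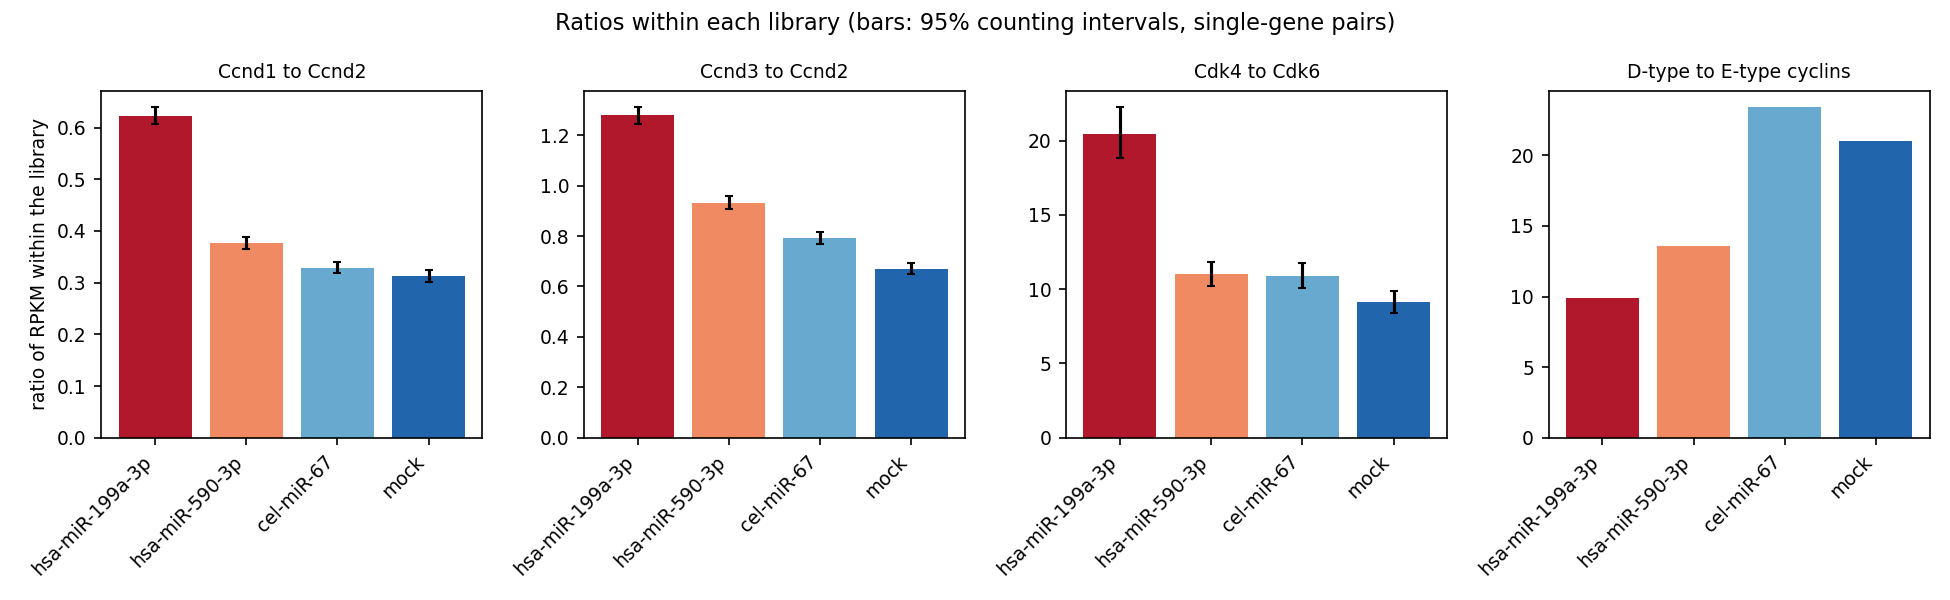
Ratio of the RPKM of a pair of genes or of summed gene groups within each library (vertical axes, from 0), with bars in the order hsa-miR-199a-3p, hsa-miR-590-3p, cel-miR-67, mock and 95% counting intervals for pairs of single genes. The hsa-miR-199a-3p library has the highest ratios of Ccnd1 to Ccnd2 (0.623), Ccnd3 to Ccnd2 (1.28) and Cdk4 to Cdk6 (20.5), and the lowest ratio of D-type to E-type cyclins (9.88).

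The E-type cyclins were higher with both mimics. Ccne1 had 1342 reads (33.3 CPM) with hsa-miR-199a-3p and 792 (22.4 CPM) with hsa-miR-590-3p, against 447 (13.4 CPM) with cel-miR-67 and 364 (12.0 CPM) in mock. Both mimic libraries were above both controls. The interval of the ratio between the controls, 1.12 (0.969 to 1.28, cel-miR-67 over mock), included 1. The ratios of hsa-miR-199a-3p were 2.49 against cel-miR-67 (2.24 to 2.78) and 2.78 against mock (2.48 to 3.13), so Ccne1 rose by the criterion. Those of hsa-miR-590-3p were 1.68 (1.49 to 1.89) and 1.87 (1.65 to 2.12), short of it. Of all genes tested, 98.1% and 98.7% had lower ratios of hsa-miR-199a-3p to the controls than Ccne1, and 96.0% and 98.3% had lower ratios of hsa-miR-590-3p. All Ccne1 reads were placed uniquely.

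Ccne2, the second E-type cyclin and also a partner of CDK2, had 899 reads (22.3 CPM) with hsa-miR-199a-3p and 579 (16.4 CPM) with hsa-miR-590-3p, against 396 (11.8 CPM) with cel-miR-67 and 344 (11.3 CPM) in mock. Both mimic libraries were above both controls. The ratios of 1.89 (1.67 to 2.13) and 1.97 (1.74 to 2.24) for hsa-miR-199a-3p fell just short of the criterion, with intervals that included 2, and Ccne2 met it when libraries were scaled to total reads alone. The ratios for hsa-miR-590-3p were 1.38 (1.22 to 1.58) and 1.45 (1.26 to 1.66). On the most abundant transcript record alone, the log2 ratio of hsa-miR-590-3p to cel-miR-67 was -0.01 in place of 0.47, so Ccne2 was then not above both controls with that mimic. The 2 transcript records of Ccne2 differ by 10 bases in length, and 3.3 to 5.8% of its reads were placed uniquely.

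The A-type cyclin Ccna2, the one used in most dividing cells, had 6632 reads (165 CPM) with hsa-miR-199a-3p and 4466 (126 CPM) with hsa-miR-590-3p, against 2304 (68.9 CPM) with cel-miR-67 and 1814 (59.7 CPM) in mock. The distance between either mimic and either control was larger than the distance between the controls. The ratios of hsa-miR-199a-3p were 2.39 against cel-miR-67 (2.28 to 2.51) and 2.76 against mock (2.62 to 2.91), so Ccna2 rose by the criterion. For hsa-miR-590-3p they were 1.83 (1.74 to 1.93) and 2.12, past 2-fold against mock only. The controls differed by a ratio of 1.15 (1.08 to 1.23, cel-miR-67 over mock). Of all genes tested, 97.8% and 98.7% had lower ratios of hsa-miR-199a-3p to the controls than Ccna2, and 97.4% and 99.2% had lower ratios of hsa-miR-590-3p.

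Ccna1, the A-type cyclin known in mouse from the male germ line, had 12 reads with hsa-miR-199a-3p and 2 with hsa-miR-590-3p, against 1 with cel-miR-67 and 0 in mock. A count of 0 allows up to 0.0987 CPM in mock, taking 3 reads as the limit, and only the hsa-miR-199a-3p library, at 0.298 CPM, was above the limit of its own depth (0.0745 CPM). Against mock at its limit of 3 reads, Ccna1 was at least 3.02-fold higher with hsa-miR-199a-3p when its 12 reads are taken as exact, and the counting interval of 12 against 0 reads had a lower end of 2.10. Against the single read of cel-miR-67 the ratio was 9.97, with a counting interval of 1.47 to 426, and against the 2 reads of hsa-miR-590-3p it was 5.27 (1.17 to 48.4).

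Cdk2 encodes the kinase that E- and A-type cyclins activate. It had 2651 reads (65.8 CPM) with hsa-miR-199a-3p and 1888 (53.4 CPM) with hsa-miR-590-3p, against 1486 (44.4 CPM) with cel-miR-67 and 1261 (41.5 CPM) in mock. Both mimics were above both controls, by less than 2-fold. The ratios were 1.48 (1.39 to 1.58) and 1.59 (1.48 to 1.70) for hsa-miR-199a-3p, and 1.20 (1.12 to 1.29) and 1.29 (1.20 to 1.38) for hsa-miR-590-3p. Its 2 transcript records differ by 144 bases in length. Transcript variant 2 held 50.1% of the Cdk2 reads with hsa-miR-199a-3p and 41.3% with hsa-miR-590-3p, against 39.8% with cel-miR-67 and 35.9% in mock. Of the few uniquely placed reads, variant 2 held 60 of 126 (47.6%, exact interval 38.7 to 56.7%) with hsa-miR-199a-3p and 32 of 80 (40.0%, 29.2 to 51.6%) with hsa-miR-590-3p, against 22 of 59 (37.3%, 25.0 to 50.9%) with cel-miR-67 and 19 of 57 (33.3%, 21.4 to 47.1%) in mock. The intervals of all 4 libraries are wide and overlap. A difference in the variants between libraries was not tested, and overlap alone does not decide it. For Ccne2 the share of variant 2 was 24.5% with hsa-miR-199a-3p and 47.8% with hsa-miR-590-3p, against 27.3% with cel-miR-67 and 43.9% in mock. The controls thus differed in that share too, and it rests on 13 to 51 unique reads per library.

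**Figure D3:**
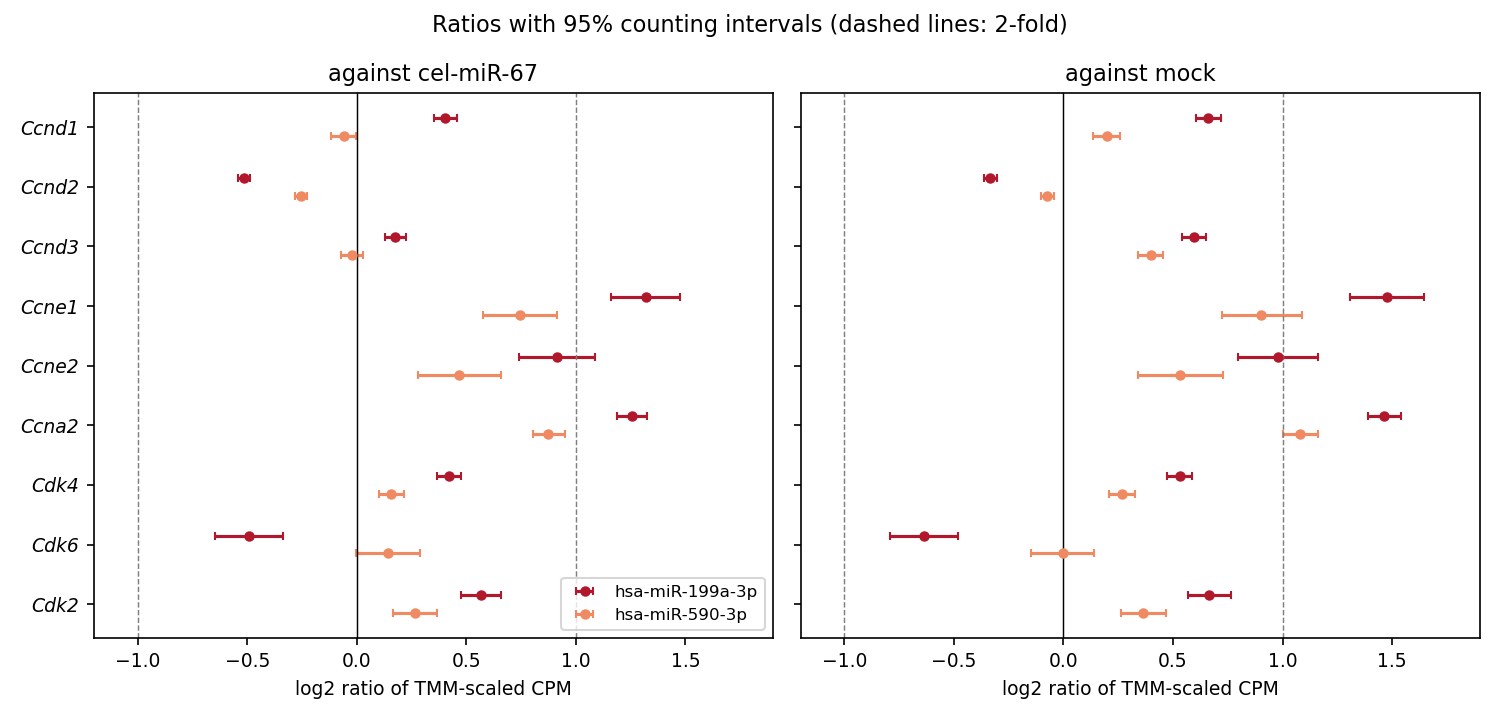
Log2 ratio of TMM-scaled CPM of each gene (horizontal axis) for hsa-miR-199a-3p (red) and hsa-miR-590-3p (orange) against cel-miR-67 (left) and mock (right), with 95% counting intervals and dashed lines at 2-fold. Ccne1 and Ccna2 lie past 2-fold in both panels with hsa-miR-199a-3p, and Ccnd2 and Cdk6 lie below 0 in both with that mimic.

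The order of the levels per length differed between the libraries. In both controls it began with Ccnd2 (113.48 RPKM with cel-miR-67 and 98.39 RPKM in mock). Cdk4 (93.29 and 85.12 RPKM) and Ccnd3 (89.85 and 66.05 RPKM) followed, and their ranges over the controls overlapped. Then came Ccnd1, Ccna2, Cdk2, Cdk6 and Ccne1, in that order and with no overlap between neighbours over the 2 controls, and last Ccne2 (3.83 and 3.60 RPKM) and Ccna1. With hsa-miR-199a-3p the order by RPKM began with Cdk4 (133.07 RPKM), Ccnd3 (108.04 RPKM) and Ccnd2 (84.51 RPKM). Ccna2 (60.55 RPKM) stood above Ccnd1 (52.65 RPKM) there, and Cdk6 (6.50 RPKM) stood below Ccne1 (17.13 RPKM) and Ccne2 (7.70 RPKM). With hsa-miR-590-3p Cdk4 (109.4 RPKM) also came first, and Ccna2 (45.85 RPKM) stood above Ccnd1 (37.67 RPKM). Cdk6 (9.95 RPKM) was below Ccne1 (11.37 RPKM) there but above Ccne2 (5.57 RPKM). On unique reads per length the order began with Ccnd2 and then Cdk4 in all 4 libraries. Ccnd3 was at rank 7 and Cdk2 at rank 8, below Cdk6 and Ccne1, in every library. Ccnd3 and Cdk2 have several transcript records that can share reads, while Cdk6 and Ccne1 have a single one. Ranks by unique reads therefore depend on the records of a gene as well as on its level. Of the Cdk2 reads, 4.0 to 4.8% were placed uniquely. In the order by unique reads too, Ccna2 stood above Ccnd1 and Cdk6 below Ccne1 with each mimic, and the other way round in both controls. The ratio of the D-type to the later cyclins, by RPKM, was lower with the mimics. Summed D-type cyclins were 9.88 times the summed E-type cyclins with hsa-miR-199a-3p and 13.6 times with hsa-miR-590-3p, against 23.4 times with cel-miR-67 and 21.0 times in mock. They were 4.05 and 5.03 times Ccna2 with the mimics, against 10.1 and 9.63 times in the controls. The ratio of Ccna2 to Ccne1, by contrast, stayed between 3.53 and 4.03 in all 4 libraries. The ratio of Ccne1 to Ccne2 was 2.22 with hsa-miR-199a-3p and 2.04 with hsa-miR-590-3p, against 1.68 with cel-miR-67 and 1.58 in mock. Few Ccne2 reads were placed uniquely, and this order did not hold on them. On unique reads cel-miR-67 had the highest ratio and mock the lowest.

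Set directly against each other, hsa-miR-199a-3p was higher than hsa-miR-590-3p for 7 of the 9 genes (49.6% of all genes were higher by any amount), all but Ccnd2 and Cdk6. None of the 9 was at least 2-fold higher (background 1.87%) or 2-fold lower (background 2.71%). The ratio was highest for Ccne1, at 1.49 (1.36 to 1.63), and lowest for Cdk6, at 0.645. Between the controls, cel-miR-67 was above mock for 8 of 9 genes, all but Cdk6 (50.3% of all genes), and none was 2-fold higher (background 0.652%) or lower (background 1.33%). The largest difference between the controls was that of Ccnd3, at 1.34, and the median log2 ratio of the 9 genes was 0.16, against 0.00 for all genes. The median for hsa-miR-199a-3p was 0.42 against cel-miR-67 and 0.66 against mock, and for hsa-miR-590-3p 0.16 and 0.36, where the medians of all genes lay between -0.01 and 0.00. The medians against mock thus contain a shift that was also present between the controls.

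Over the 4 libraries some of the genes lay close together. Likeness was measured as the Euclidean distance between the deviations of log2 CPM from the mean over the 4 libraries, 1 value per condition, and is a description. Cdk4 and Cdk2 were the closest pair (0.124), then Ccne1 and Ccna2 (0.151) and Ccnd1 and Cdk4 (0.182). The pair furthest apart was Ccne1 and Cdk6 (1.62). Among the 9580 genes that averaged 10 CPM or more, those nearest to Ccne1 were Cdca8 (0.0177), a subunit of the chromosomal passenger complex, Birc5 (0.0620), which encodes survivin of the same complex, and Stmn1 (0.0840), which encodes the microtubule regulator stathmin. Cdca8 had 2756 reads with hsa-miR-199a-3p and 1609 with hsa-miR-590-3p, against 924 with cel-miR-67 and 746 in mock. Nearest to Ccna2 were Knstrn (0.0760), a spindle and kinetochore protein gene, Fam83d (0.0825), which encodes a spindle protein, and Espl1 (0.0979), which encodes separase. Nearest to Ccnd1 were Mvd (0.0505), an enzyme gene of the mevalonate pathway, Rusf1 (0.0507) and Edc3 (0.0572), an mRNA decapping factor.

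The other genes of the pathway were grouped by role into 7 lists of 76 genes, of which 74 were measured. With hsa-miR-199a-3p, 7 of these rose and 1 fell by the criterion, against background shares of 2.4% and 2.34%. With hsa-miR-590-3p, 1 rose and 0 fell, against 0.356% and 0.23%. Of all genes, 40.2% were above and 41.9% below both controls with hsa-miR-199a-3p, and 35.6% and 36.6% with hsa-miR-590-3p, the shares beside which the counts above and below are to be read. These counts describe the lists, and no test of a list was made.

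Of the mitotic cyclins, CDK1 and their activators, 7 of 8 were measured and all 7 were above both controls with each mimic. Their median log2 ratios were 0.89 and 1.20 for hsa-miR-199a-3p against cel-miR-67 and mock, and 0.55 and 0.86 for hsa-miR-590-3p. Those that rose with hsa-miR-199a-3p were Ccnb2, a B-type cyclin of mitosis (1899 reads with hsa-miR-199a-3p and 1318 with hsa-miR-590-3p, against 784 with cel-miR-67 and 623 in mock), and Cdc25b, a phosphatase that activates CDKs (1628 and 776 reads, against 544 and 350). The ratios of hsa-miR-199a-3p to cel-miR-67 and mock were 2.01 (1.85 to 2.19) and 2.30 (2.10 to 2.52) for Ccnb2. The first of these intervals included values under 2. For Cdc25b the ratios were 2.49 and 3.51, and only 2.4 to 4.9% of its reads were placed uniquely.

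Another list held the pocket proteins and E2F factors. Pocket proteins, and those E2F factors that bind them, act directly downstream of the D-type cyclins. With hsa-miR-199a-3p, 2 of 13 rose, 1 fell, 10 were above and 3 below both controls, while with hsa-miR-590-3p 1 rose, 12 were above and 1 was below. Rb1, which encodes the retinoblastoma protein, fell to 296 reads with hsa-miR-199a-3p and had 1232 with hsa-miR-590-3p, against 763 with cel-miR-67 and 957 in mock. Its ratios for hsa-miR-199a-3p were 0.322 (0.281 to 0.369) and 0.233 (0.204 to 0.266), while for hsa-miR-590-3p they were 1.53 and 1.11. The mimics therefore lay on opposite sides of the controls. E2f2, an activating E2F factor, rose with both mimics, with 495 reads with hsa-miR-199a-3p and 198 with hsa-miR-590-3p, against 90 with cel-miR-67 and 82 in mock. Its ratios were 4.57 (3.64 to 5.78) and 4.55 (3.60 to 5.83) for hsa-miR-199a-3p, and 2.08 and 2.08 for hsa-miR-590-3p, with counting intervals for the second mimic that included values under 2. E2f1, another activating factor, rose with hsa-miR-199a-3p, with 1970 and 1405 reads with the mimics, against 793 and 618 in the controls.

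Among the 7 CDK inhibitors, 2 rose with hsa-miR-199a-3p and none fell, 5 being above and 1 below both controls. Both that rose belong to the INK4 family, which binds CDK4 and CDK6, and the other INK4 genes of the list did not meet the criterion. Outside that family, Cdkn1c had ratios of 1.89 against cel-miR-67 and 3.37 against mock for hsa-miR-199a-3p, short of the criterion against cel-miR-67 only. Cdkn1a, the most abundant inhibitor, was below both controls with that mimic (0.709 and 0.925) and with hsa-miR-590-3p (0.531 and 0.692). Only 2.3 to 4.6% of Cdkn1c reads and 5.9 to 6.9% of Cdkn1a reads were placed uniquely. Cdkn2c (p18) had 707 reads with hsa-miR-199a-3p and 431 with hsa-miR-590-3p, against 234 with cel-miR-67 and 170 in mock, and its ratios for hsa-miR-199a-3p were 2.51 and 3.14. Cdkn2d (p19) had 1965 and 1246 reads, against 813 and 715, with ratios of 2.01 and 2.07 and 4.9 to 6.3% of its reads placed uniquely. The ratios for hsa-miR-199a-3p against cel-miR-67 and mock were 1.17 and 1.00 for Cdkn2b (p15) and 2.11 and 0.914 for Cdkn2a, which had 43 to 109 reads per library. With hsa-miR-590-3p no inhibitor met the criterion, and 3 were above and 3 below both controls.

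Of the CDK activators and adaptors, 0 of 7 met the criterion with either mimic, and 5 were above and 1 below both controls with hsa-miR-199a-3p. The most abundant, Cdc37, a co-chaperone of kinases that include CDK4, had ratios of 1.23 and 1.15 for hsa-miR-199a-3p and 1.03 and 0.961 for hsa-miR-590-3p. Both inhibitory kinases were above both controls with each mimic and neither met the criterion. Wee1, the more abundant of them, had ratios of 1.54 and 1.28 for hsa-miR-199a-3p and 1.69 and 1.41 for hsa-miR-590-3p. Among 12 genes that act in the turnover of the D, E and A cyclins and of p27, 1 rose with hsa-miR-199a-3p. With that mimic 5 were above and 6 below both controls, shares near those of all genes (40.2% and 41.9%). With hsa-miR-590-3p, 7 were above and 2 below both controls (35.6% and 36.6% of all genes), and none met the criterion. The gene that rose was Cdc20, an activator of the anaphase-promoting complex, with 3675 and 2056 reads with the mimics, against 1321 and 1037 in the controls, and ratios of 2.31 and 2.67 for hsa-miR-199a-3p. Of the cyclins and CDKs of transcription and other roles, 6 of 26 were above and 16 below both controls with hsa-miR-199a-3p (40.2% and 41.9% of all genes), with median log2 ratios of -0.28 against cel-miR-67 and -0.15 against mock. With hsa-miR-590-3p, 6 were above and 10 below (35.6% and 36.6% of all genes), with medians of -0.06 and 0.02, and none met the criterion with either mimic. Their most abundant member, Ccng1, a p53 target, had 10503 and 6511 reads with the mimics, against 17564 with cel-miR-67 and 10500 in mock. The controls differed 1.52-fold for Ccng1, and its log2 ratios for hsa-miR-199a-3p were -1.01 against cel-miR-67 and -0.41 against mock, so it did not meet the criterion.

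**Figure D4:**
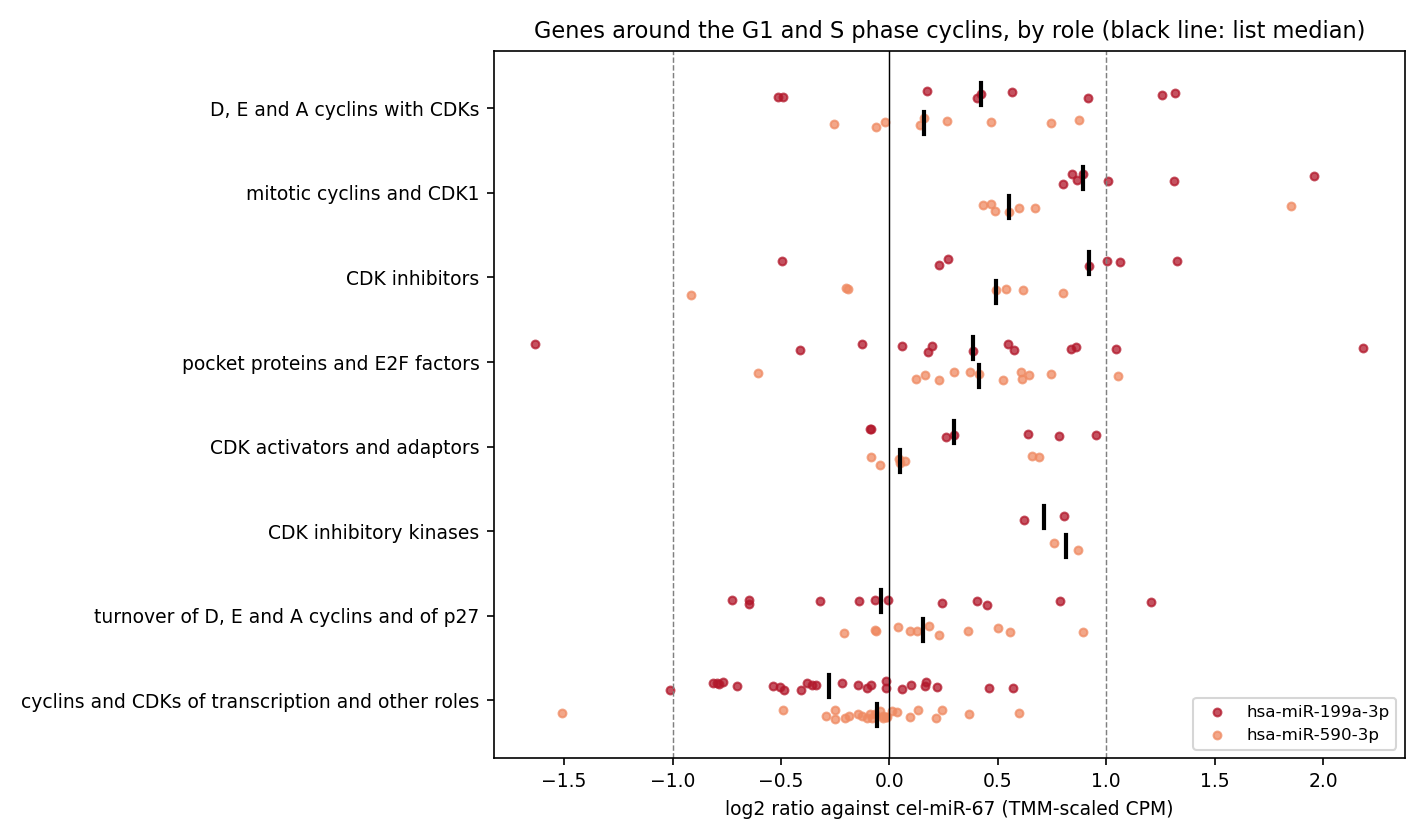
Log2 ratio against cel-miR-67 (horizontal axis) of every measured gene of the D, E and A cyclins with CDKs and of the 7 lists around them, with hsa-miR-199a-3p in red above hsa-miR-590-3p in orange, a black line at each list median and dashed lines at 2-fold; vertical offsets only separate the points. All mitotic cyclin genes lie to the right of 0 with both mimics, and Rb1 is the red point furthest to the left, at -1.63.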

How the data were processed

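Samples were grouped by the treatment in the labels. Per the file headers, the authors' files give counts of total and uniquely placed gene reads and an RPKM for each of 36065 RefSeq transcript records, with record length. In the deposited values RPKM is reads scaled to record length and to the summed reads of the library. The submitters' processing notes name CASAVA 1.8 and build mm8, without a role, and no source used here names the program that mapped the reads. Total reads include reads shared with other records, so 67.6 to 68.7% of a library was placed uniquely. Symbols came from the GRCm38.p6 RefSeq table by accession for 27926 records and from the files for 8139. The strand setting of the counting is not given, so reads of antisense partners cannot be told apart.

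Records of a gene were summed (10 genes, 14 records). Counts were scaled by TMM factors of edgeR 4.0.16 (R 4.3.3), which lay between 0.960 and 1.04. Log2 ratios used a prior count of 0.5, and 13502 genes had a mean of at least 1 CPM. Printed ratios are of CPM without a prior. With 1 library per condition there were 0 residual degrees of freedom and no p-value was computed. A gene rose or fell when its ratio was at least 2 against each control in the same direction. Intervals are exact binomial (Clopper-Pearson) at 95%, and reads carry no molecular identifiers, so intervals and limits cover counting error only. Levels between genes were compared in RPKM. Scripts used Python 3.11.15, numpy 2.4.6, pandas 2.3.3, scipy 1.17.1 and matplotlib 3.10.9, and were tested on simulated data. Of each pathway list, the genes past the criterion with either mimic were named, or otherwise the most abundant one. Some other CDK inhibitors were named beside those that rose. For Ccnd1, Ccne1 and Ccna2 the 3 nearest genes were named. The genes, lists and criterion were chosen with earlier results of these data known. Alternatives changed the scaling, the reads counted, the record used, the filter, the prior count and the control.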

Additional observations from a re-analysis of the deposited data

How the results depend on the processing

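Over the alternatives, 504 log2 ratios of the 9 genes were set beside the reported ones. None that was past 2-fold changed sign, 430 stayed within the counting interval of the reported ratio, and the largest shift was 0.78 (Ccne2, cel-miR-67 over mock, on unique reads). Alternatives that changed only the filter leave each log2 ratio as reported. Their part of the 504 and of the 430 was thus fixed in advance and says nothing about stability. Ratios short of 2-fold changed sign in 16 cases. The largest of them as reported was that of Ccne2, hsa-miR-590-3p over cel-miR-67, at 0.47, which was -0.01 on the most abundant record. Others were hsa-miR-590-3p over cel-miR-67 for Ccnd1 (0.01) and Ccnd3 (0.05) and over mock for Ccnd2 (0.02) and Cdk6 (0.09) when libraries were scaled to total reads alone. That scaling, like the authors' RPKM, gave 8 genes above both controls with hsa-miR-590-3p, and moved the median of all genes for hsa-miR-199a-3p over mock to 0.10. The number of genes at least 2-fold higher with hsa-miR-199a-3p became 3 under either of these, by adding Ccne2, and 3 without a filter, by adding Ccna1. Without a filter Ccna1 also gave 1 gene past 2-fold between cel-miR-67 and mock and 1 for hsa-miR-199a-3p against hsa-miR-590-3p. In the pathway lists, the mean of both controls as the reference gave 14 genes for hsa-miR-199a-3p and 3 for hsa-miR-590-3p, and no filter gave 2 for hsa-miR-590-3p, against 8 and 1 in the report. The mean is a looser rule, since any gene past 2-fold from each control also passes it. Shares of all genes under these settings are not given here, so the higher counts are not a result about the lists. On unique reads the ratio of Ccnd1 to Ccnd2 was 0.566, 0.341, 0.301 and 0.284 in the order hsa-miR-199a-3p, hsa-miR-590-3p, cel-miR-67 and mock. In the same order the ratio of Ccnd3 to Ccnd2, an alternative chosen after seeing the data, was 0.0438, 0.0346, 0.0236 and 0.0247, the ratio of Cdk4 to Cdk6 was 10.1, 5.62, 5.37 and 4.58, and that of Ccne1 to Ccne2 was 39.2, 42.2, 51.3 and 27.2, because few Ccne2 reads are unique. No paired analysis was possible because each condition has 1 library. Leaving out a replicate was not possible for the same reason. Depth limits Ccna1, at 0 to 12 reads, and the transcript variants of Cdk2 and Ccne2, on 13 to 126 unique reads.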

Other observations

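The mitotic cyclin Ccnb1, singled out after its values were seen, separated the controls. It had 3611 reads with hsa-miR-199a-3p and 2945 with hsa-miR-590-3p, against 772 with cel-miR-67 and 1407 in mock. The ratio of cel-miR-67 to mock was 0.499 (counting interval 0.456 to 0.545), whereas Ccnb2 had a ratio of 1.14 (1.03 to 1.27) between the same libraries. The log2 ratios were 1.96 against cel-miR-67 and 0.95 against mock for hsa-miR-199a-3p, and 1.85 and 0.85 for hsa-miR-590-3p, so Ccnb1 did not meet the criterion. Of its reads, 28 to 29% were placed uniquely.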
